A study of Mus musculus with 10 samples.

Results

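Oligodendrocyte precursor cells are the dividing glial cells that give rise to the myelinating cells of the cerebellum, and 10 genes that mark them or the steps that follow were examined in whole cerebella of *Dscam* mutant mice. The genes were *Pdgfra*, *Cspg4*, *Olig1*, *Olig2*, *Gpr17*, *Bmp4*, *Ptprz1*, *Vcan*, *Enpp6* and *Tcf7l2*. They were taken by gene symbol, with no filter on their measured values, from the 53447 genes listed in each library, and all 10 were found. Earlier results of these data were known when they were chosen. The wild-type (WT) group, called Control in the sample labels, and the DscamKO group each held 5 mice of strain BALB/c at postnatal day 21, with 1 cerebellum and 1 library per mouse. DscamKO mice were homozygous for *Dscam* del17, a spontaneous deletion within the *Dscam* gene that is present in every cell of the animal, and neither group carried a transgene or a Cre driver. Control mice were littermates according to the study's methods, both sexes were used, and the labels give no sex. The values were measured in whole tissue, where fewer cells of a type and less RNA per cell cannot be told apart.

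A precursor cell depends on the growth factor receptor PDGFRA and carries the proteoglycan NG2, the product of *Cspg4*, on its surface. It leaves the cell cycle, passes through a committed stage marked by *Gpr17* and *Bmp4* and a newly formed stage marked by *Enpp6*, and then builds myelin. The basic helix-loop-helix factors OLIG1 and OLIG2 are present from the precursor to the mature cell, and TCF7L2, a partner of beta-catenin in Wnt signalling, is transiently raised during differentiation. Several of these genes are also used elsewhere: *Cspg4* by pericytes, *Pdgfra* by meningeal fibroblasts, *Ptprz1* by Bergmann glia and astrocytes, and *Tcf7l2* by neurons of the thalamus and midbrain.

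Depth cannot be known from TPM, which give each gene its length-scaled share of a library's transcripts, and no counting error is given. *Dscam* itself checked the labels. It measured 8.04, 8.43, 6.79, 9.05 and 6.29 TPM in WT replicates 1 to 5 and 5.11, 5.42, 4.53, 3.73 and 3.05 TPM in mutant replicates 1 to 5. The groups did not overlap (exact two-sided permutation p = 0.0079, the smallest possible with 5 against 5), and the log2 fold change, mutant minus WT, was -0.82 (95% interval -1.33 to -0.32, limma adjusted p = 0.779). WT replicate 5 stood apart: it had 15623 genes at 0.5 TPM or more against 17101 to 17763 in the other 9 libraries, and only 15206 TPM of mitochondrially encoded mRNAs. The next lowest such sum was 23124 TPM in WT replicate 3, and the other 8 libraries had 32199 to 44973 TPM. Values without WT replicate 5 are therefore given beside those of all libraries where they differ in sign or by more than 1.5 times. That library moved genes in general: without it, 44.0% of all genes tested had a log2 fold change above 0, with a median of -0.037, and with WT replicate 3 left out as well the share was 33.7% and the median -0.094. Counts over gene lists without these libraries are to be read against those shares.

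Of the 10 genes, 9 reached 0.5 TPM in at least 5 libraries and were compared together with all 17168 genes that did so. None of the 9 passed the adjusted p threshold of 0.05 in limma, and neither did any other gene, so that 0.0% of all genes tested were called. At an unadjusted p under 0.05, 953 of the 17168 genes (5.55%) were listed, 394 of them (2.29%) with a higher value in the mutant. *Olig2* was the 1 gene of the 9 (11.1%) on that list, with a higher value in the mutant. The WT and mutant values overlapped for all 10 genes, while 1.22% of all genes tested had groups that did not overlap. Of the 9 log2 fold changes, 6 were above 0 and their median was 0.13, against a median of 0.048 over all genes tested, 56.0% of which were above 0. Without WT replicate 5, 5 of 9 were above 0 and their median was 0.0052.

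**Figure D1:**
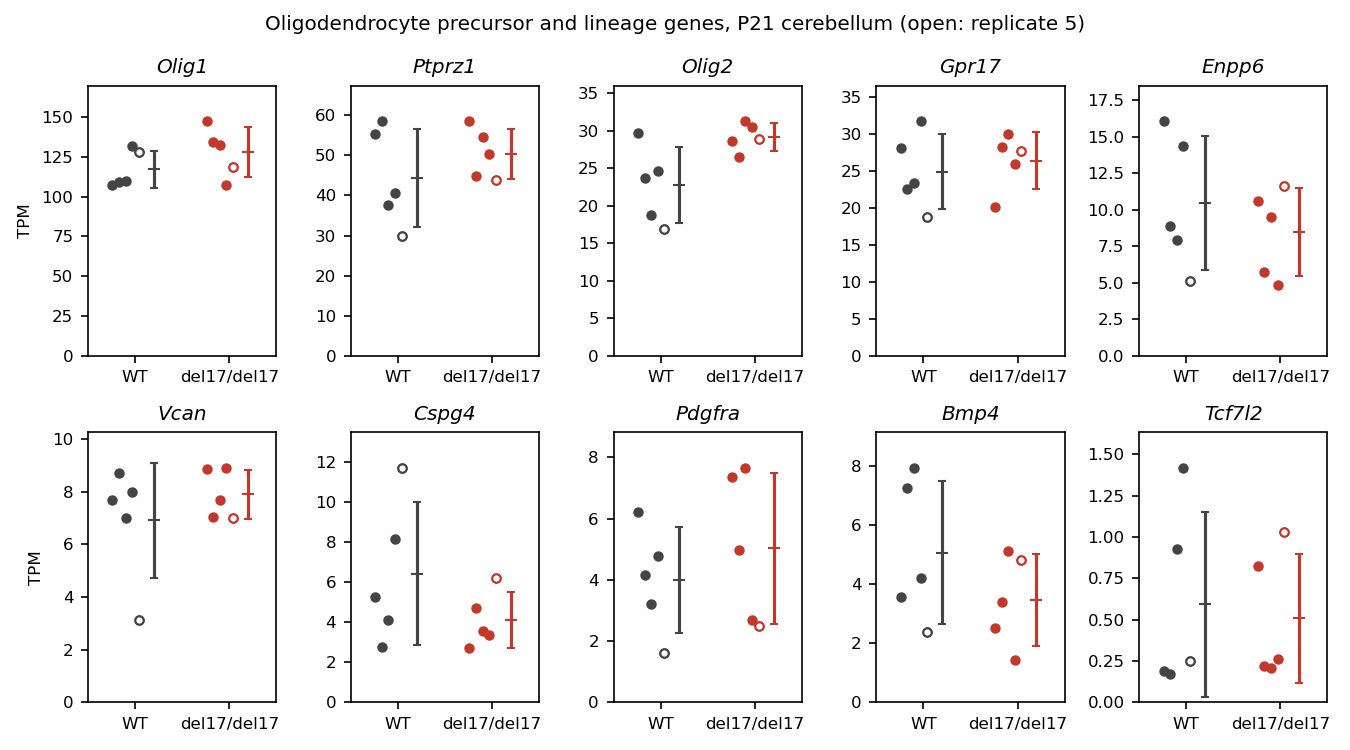
TPM of the 10 genes in each library, ordered by mean level, with WT on the left and *Dscam* del17/del17 on the right of each panel. Each point is 1 mouse, open points are replicate 5 of either genotype, and bars show the mean and SD over 5 mice. WT replicate 5 is the lowest WT library for *Ptprz1*, *Olig2*, *Gpr17*, *Enpp6*, *Vcan*, *Pdgfra* and *Bmp4* and the highest for *Cspg4*, and the genotypes overlap in every panel.

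TPM are scaled for length, so levels can be set side by side. They are not scaled for base composition, with which levels in single libraries shifted (below), so the ratios are approximate. *Olig1* was the most abundant, with a mean of 122.6 TPM over the 10 libraries, 27.1 times that of *Pdgfra* and 4.72 times that of *Olig2*. Its lowest library (107 TPM) lay above the highest library of *Ptprz1* (58.5 TPM), which followed with a mean of 47.4 TPM and exceeded *Olig2* in all 10 libraries. *Olig2* (26.0 TPM) and *Gpr17* (25.6 TPM) could not be placed in order, since *Olig2* was the higher in 6 of 10 libraries. After a gap without overlap came *Enpp6* at 9.47 TPM and *Vcan* at 7.40 TPM. *Cspg4* (5.27 TPM), *Pdgfra* (4.52 TPM) and *Bmp4* (4.27 TPM) did not differ from their neighbours in this order beyond their spread, *Cspg4* being above *Pdgfra* in 5 of 10 libraries and *Pdgfra* above *Bmp4* in 6. *Tcf7l2* was last at 0.551 TPM, below *Bmp4* in every library.

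*Pdgfra*, the receptor for platelet-derived growth factor that keeps precursors dividing, lies on chromosome 5 (GRCm38, GENCODE M21, positions 75152292 to 75198215, + strand). It measured 6.22, 4.14, 3.21, 4.79 and 1.61 TPM in WT replicates 1 to 5 and 7.37, 4.98, 7.67, 2.69 and 2.49 TPM in the mutant replicates. The mutant libraries fell into a high set (1 and 3) and a low set (4 and 5) that reached across most of the WT range. The means were 3.99 ± 1.73 TPM in WT mice and 5.04 ± 2.47 TPM in mutant mice (SD, n = 5 each), with a log2 fold change of 0.30 (95% interval -0.65 to 1.26, limma adjusted p = 0.873). Single libraries moved this value widely: leaving out 1 at a time gave 0.021 (without WT replicate 5) to 0.51 (without mutant replicate 5), including 0.12 and 0.13 without mutant replicates 3 and 1 and 0.49 without WT replicate 1 or mutant replicate 4. With WT replicates 3 and 5 both left out it was -0.13. Markers of meningeal fibroblasts, the other cells here that use *Pdgfra*, were present at sums of 53.4 to 116 TPM over 8 genes in WT cerebella and 65.9 to 77.3 TPM in mutant cerebella, with 2 of 8 log2 fold changes above 0 (median -0.16), or none without WT replicate 5 (median -0.29). Their part in the *Pdgfra* values was not tested.

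*Cspg4* (chromosome 9, 56865033 to 56899870, + strand) encodes NG2, the surface proteoglycan by which precursors are usually stained. It measured 5.28, 2.79, 4.13, 8.18 and 11.7 TPM in WT cerebella and 2.70, 4.74, 3.56, 3.35 and 6.23 TPM in the mutant. All mutant values lay within or just below the WT range, and WT replicates 4 and 5 exceeded every mutant library. The means were 6.42 ± 3.57 TPM (SD, n = 5) and 4.12 ± 1.39 TPM (SD, n = 5), and the log2 fold change was -0.51 (95% interval -1.37 to 0.34, limma adjusted p = 0.785). Leaving out single libraries gave -0.26 (without WT replicate 5) to -0.76 (without WT replicate 2). Pericyte markers, also in cells that use *Cspg4*, summed to 114 to 155 TPM in WT cerebella and 105 to 131 TPM in mutant cerebella over 8 genes, and 1 of 8 had a log2 fold change above 0 (median -0.19). Their part in the *Cspg4* values was not tested. Neither surface marker of the precursor differed between genotypes beyond its spread. With all libraries their estimates had opposite signs, and with WT replicates 3 and 5 left out both were below 0 (-0.13 for *Pdgfra* and -0.32 for *Cspg4*).

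*Olig1* and *Olig2* lie next to each other on chromosome 16, at 91269772 to 91271933 and 91225457 to 91228677, both on the + strand. *Dscam* is on the same chromosome, 5.32 Mb from *Olig1* and 5.36 Mb from *Olig2*. Sequence linked to the del17 allele travels with it in such a cross, so effects of the deletion and of linked sequence cannot be told apart for this pair. *Olig1*, a gene of 1 exon, measured 107, 109, 109.9, 132 and 128 TPM in WT cerebella and 147, 135, 133, 107 and 118 TPM in the mutant. The groups overlapped, mutant replicate 4 being level with the lowest WT library, and 4 of 5 mutant libraries lay above the WT median. With means of 117 ± 11.5 TPM and 128 ± 15.4 TPM (SD, n = 5 each), *Olig1* was the steadiest of the 10 genes in WT, with a coefficient of variation of 9.86%. Its log2 fold change was 0.13 (95% interval -0.11 to 0.36, limma adjusted p = 0.795), and 0.073 without mutant replicate 1.

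*Olig2*, which specifies the lineage and is needed for precursors to form, measured 29.7, 23.6, 18.8, 24.6 and 17.0 TPM in WT cerebella and 28.7, 26.6, 31.3, 30.4 and 28.9 TPM in the mutant. All 5 mutant libraries lay above the WT median and above 4 of the 5 WT libraries, with WT replicate 1 among the mutant values. The mutant libraries were also close together, with a coefficient of variation of 6.22% against 22.2% in WT. The means were 22.7 ± 5.05 TPM in WT mice and 29.2 ± 1.81 TPM in mutant mice (SD, n = 5 each), an exact two-sided permutation p of 0.0317. The log2 fold change was 0.38 (95% interval 0.04 to 0.73), and the limma adjusted p over all genes was 0.779, so this difference did not pass the correction. It was 0.29 without WT replicate 5 and 0.17 (95% interval -0.10 to 0.44) when WT replicate 3 was left out as well.

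The start regions of *Pdgfra* and *Olig2* are shown because the surface receptor and the factor that marks the same cells are read from promoters of different base composition. RefSeq (GRCm38.p6) gave promoters for 8 of the 10 genes, *Olig1* and *Gpr17* having none in the table used, and 9 promoters in all, with 2 for *Tcf7l2*. The stretch upstream of RefSeq's start is printed in lower case, the *Olig2* stretch ending where the GENCODE gene begins. Capitals mark the E-box letters CANNTG, which read the same on both strands and are the kind of site that OLIG factors bind.

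*Pdgfra*, chr5:75152001-75152250, + strand: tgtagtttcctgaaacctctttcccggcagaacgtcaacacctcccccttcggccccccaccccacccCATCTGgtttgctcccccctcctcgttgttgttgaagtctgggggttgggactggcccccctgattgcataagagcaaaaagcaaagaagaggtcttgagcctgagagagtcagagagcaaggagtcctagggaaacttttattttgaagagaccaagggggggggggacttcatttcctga
*Olig2*, chr16:91225300-91225456, + strand: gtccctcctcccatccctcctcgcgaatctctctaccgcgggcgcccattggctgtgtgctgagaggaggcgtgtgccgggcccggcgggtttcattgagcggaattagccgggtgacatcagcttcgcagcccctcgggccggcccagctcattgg

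The *Olig2* stretch holds 14 CpG dinucleotides in 157 bases and no E-box letters, and the *Pdgfra* stretch holds 4 CpG dinucleotides in 250 bases and 1 E-box. Over the 250 bases before the start, 3 of the 9 promoters held these letters (*Pdgfra* 1, *Vcan* 1, *Bmp4* 3), against 66.2% of the 32851 mouse promoters in the table. A match is a string of letters and not a measured site, and binding was not measured in these libraries.

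*Gpr17*, a G protein-coupled receptor switched on as precursors commit to differentiate and switched off before myelination, measured 28.0, 22.5, 23.3, 31.7 and 18.8 TPM in WT cerebella and 20.1, 28.3, 30.0, 25.9 and 27.7 TPM in the mutant. Each genotype spanned nearly the same range. The means were 24.9 ± 5.04 TPM and 26.4 ± 3.80 TPM (SD, n = 5 each), with a log2 fold change of 0.09 (95% interval -0.27 to 0.46, limma adjusted p = 0.896). The estimate moved to -0.00062 without WT replicate 5, with an interval of -0.34 to 0.34. It was 0.19 without WT replicate 4 or mutant replicate 1, 0.14 without WT replicate 1 and 0.046 without mutant replicate 3. The exons of *Gpr17* on chromosome 18 (31942997 to 31949636, - strand) overlap those of *Lims2* on the other strand, which averaged 10.2 TPM. The library kit was directional, but the strand setting of the quantification is not given in the sources used here, so reads of the pair may have been shared. *Lims2* had a log2 fold change of -0.10, or -0.56 without WT replicate 5.

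*Bmp4*, a ligand made by committed cells that can also hold back differentiation, lies on chromosome 14 (46383520 to 46390669, - strand). It measured 3.58, 7.25, 7.96, 4.23 and 2.38 TPM in WT cerebella and 2.52, 3.39, 5.13, 1.44 and 4.83 TPM in the mutant. WT replicates 2 and 3 were the highest of all, and mutant replicate 4 was the lowest. With means of 5.08 ± 2.41 TPM and 3.46 ± 1.55 TPM (SD, n = 5 each), the log2 fold change was -0.54 (95% interval -1.48 to 0.40, limma adjusted p = 0.786). Leaving out single libraries gave -0.27 (without mutant replicate 4) to -0.77 (without WT replicate 5), with -0.34 without WT replicate 3.

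*Enpp6*, a choline-specific phosphodiesterase that marks newly forming oligodendrocytes, lies on chromosome 8 (46986887 to 47096762, + strand). It measured 16.0, 8.88, 7.91, 14.4 and 5.14 TPM in WT cerebella and 10.6, 5.77, 9.48, 4.83 and 11.6 TPM in the mutant. The mutant values lay inside the WT range apart from replicate 4, just below it, and WT replicates 1 and 4 exceeded every mutant library. The means were 10.5 ± 4.58 TPM and 8.46 ± 3.0 TPM (SD, n = 5 each), and the log2 fold change was -0.27 (95% interval -1.04 to 0.50, limma adjusted p = 0.862). It was -0.49 without WT replicate 5 and -0.40 without mutant replicate 5. It was nearer 0 without WT replicate 1 (-0.086), mutant replicate 4 (-0.089), WT replicate 4 (-0.13) or mutant replicate 2 (-0.15).

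*Tcf7l2* (chromosome 19, 55741820 to 55933654, + strand) was close to the lower limit of the comparison. It measured 0.189, 0.174, 0.928, 1.42 and 0.251 TPM in WT cerebella and 0.825, 0.222, 0.207, 0.263 and 1.03 TPM in the mutant, so that only WT replicates 3 and 4 and mutant replicates 1 and 5 reached 0.5 TPM. With no filter on low values its log2 fold change was -0.04 (95% interval -1.54 to 1.46, limma adjusted p = 0.990), an interval too wide to bound a difference. Markers of midbrain, thalamus and brainstem, where neurons use *Tcf7l2*, were low: 4 of 14 were abundant enough to test, *Hoxa5* and *Hoxb5* were listed at 0 in all libraries, and the 14 summed to 3.28 to 11.1 TPM in WT cerebella and 8.43 to 20.7 TPM in mutant cerebella. All 4 tested markers had log2 fold changes above 0 (median 1.29, and 1.25 without WT replicate 5). Of these 4, 3 were higher in the mutant at an unadjusted limma p under 0.05, against 2.29% of all genes tested. The count was 3 without WT replicate 5 (289 of all 17168 genes). It was 2 with WT replicate 3 left out as well (204 of all genes). Their part in the values of the lineage genes was not tested.

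*Ptprz1*, a receptor-type phosphatase with a chondroitin sulfate chain, lies on chromosome 6 (22875502 to 23052916, + strand). It measured 55.3, 58.5, 37.7, 40.6 and 29.8 TPM in WT cerebella and 58.5, 44.8, 54.6, 50.2 and 43.8 TPM in the mutant. WT replicates 1 and 2 sat with the highest mutant library, and WT replicates 3 to 5 sat below every mutant library. The means were 44.4 ± 12.2 TPM and 50.4 ± 6.29 TPM (SD, n = 5 each), and the log2 fold change was 0.22 (95% interval -0.18 to 0.62, limma adjusted p = 0.791). It was 0.33 without WT replicate 2, 0.086 without WT replicate 5 and -0.022 when WT replicate 3 was left out as well. Markers of Bergmann glia and astrocytes, which also express *Ptprz1*, summed to 2220 to 2597 TPM in WT cerebella and 2326 to 2614 TPM in mutant cerebella over 10 genes, with 6 of 10 log2 fold changes above 0 (median 0.042), or 4 without WT replicate 5 (median -0.048). Their part in the *Ptprz1* values was not tested.

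*Vcan* (chromosome 13, 89655312 to 89742509, - strand) encodes versican, a large matrix proteoglycan that precursors secrete. It measured 7.69, 8.72, 6.98, 8.0 and 3.14 TPM in WT cerebella and 8.84, 7.03, 7.68, 8.91 and 7.02 TPM in the mutant. Outside WT replicate 5, all 9 libraries fell between 6.98 and 8.91 TPM. The means were 6.91 ± 2.2 TPM and 7.90 ± 0.934 TPM (SD, n = 5 each), and the log2 fold change was 0.26 (95% interval -0.34 to 0.87, limma adjusted p = 0.829). Without WT replicate 5 it was 0.0052 (95% interval -0.38 to 0.39).

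**Figure D2:**
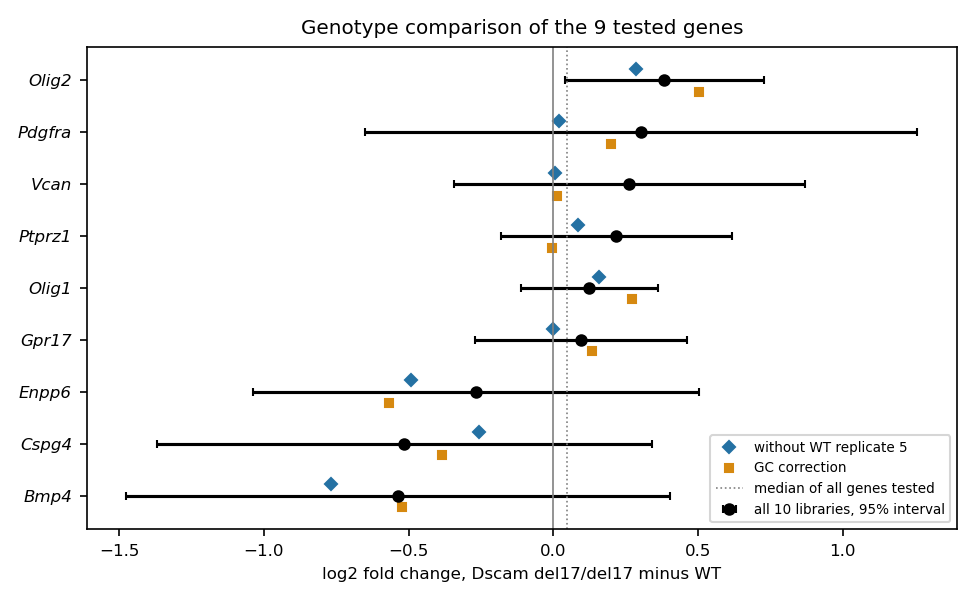
Log2 fold changes, *Dscam* del17/del17 minus WT, of the 9 genes tested. Circles with bars are estimates from all 10 libraries with 95% intervals, diamonds are estimates without WT replicate 5, squares are estimates after a correction for GC content, and the dotted line is the median of all genes tested. The interval of *Olig2* alone lies above 0, and *Pdgfra*, *Vcan* and *Gpr17* sit near 0 without WT replicate 5.

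The deviation of WT replicate 5 followed base composition. Over 11160 protein-coding genes, its log2 value minus the mean of the other 4 WT libraries had a median of -0.97 among the 2232 genes of lowest transcript GC content and 0.15 among the 2232 of highest. Across genes, which are not independent replicates, the Spearman correlation of GC content with this deviation was 0.592. In WT replicates 1 to 4 the correlation was -0.633, -0.617, 0.356 and 0.025, and in the mutant libraries it lay between -0.213 and 0.337. Each library was set against the other 4 of its genotype, so the values of WT replicates 1 to 4 also reflect replicate 5. The lineage genes span much of this range. *Enpp6* (42.3% GC), *Vcan* (43.7%) and *Ptprz1* (44.5%) stood 1.12, 1.29 and 0.66 log2 units below the other WT libraries in replicate 5, while *Cspg4* (59.2%) stood 1.29 above. *Olig1* (61.1%) was 0.16 above, and *Olig2*, at 58.5% GC, was 0.49 below. *Pdgfra* (48.1%) was 1.42 below and *Bmp4* (52.5%) 1.16 below.

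**Figure D3:**
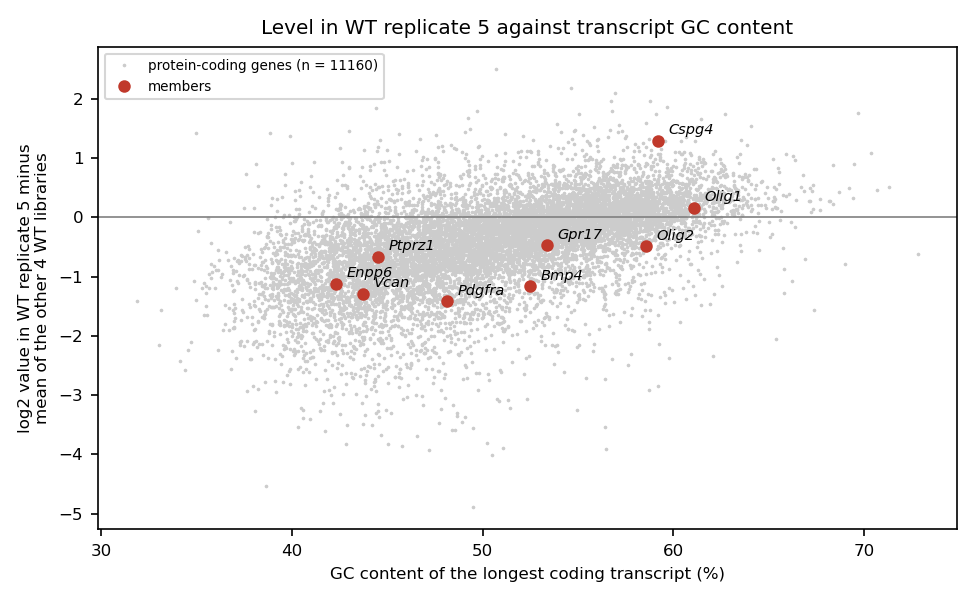
GC content of the longest coding transcript (percent) against the log2 value in WT replicate 5 minus the mean of the other 4 WT libraries. Grey points are 11160 protein-coding genes and red points the 9 lineage genes tested. *Cspg4* is 1.29 above 0, and *Enpp6*, *Vcan*, *Pdgfra* and *Bmp4* are more than 1 below it.

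Removing the trend with GC content from each library, a correction chosen after seeing the data and applied to 13480 genes, left 5 of the 9 log2 fold changes above 0, with a median of 0.013. *Ptprz1* and *Vcan* then stood at -0.0051 (95% interval -0.21 to 0.20) and 0.013 (95% interval -0.35 to 0.38). *Olig2* stood at 0.51 (95% interval 0.15 to 0.86) and *Olig1* at 0.27 (95% interval 0.08 to 0.46), both with a limma adjusted p of 0.639, and both at an unadjusted p under 0.05 together with 3.38% of all genes higher in the mutant. On the corrected log2 scale *Olig1* ran from 6.68 to 6.89 in WT and from 6.84 to 7.23 in the mutant, so that the groups met only at their edges (exact two-sided permutation p = 0.0159). *Olig2* ran from 3.94 to 4.87 in WT and from 4.79 to 5.07 in the mutant (exact two-sided permutation p = 0.0317). *Enpp6* stood at -0.57 (95% interval -1.19 to 0.05, limma adjusted p = 0.745). No gene passed the adjusted threshold with this correction either, and 926 of the 13480 had an unadjusted p under 0.05.

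The other genes of the lineage were taken as lists, and no gene in any list passed the adjusted threshold. Among 11 other precursor genes, 7 had log2 fold changes above 0 (median 0.088), and without WT replicate 5 there were 4 (median -0.13), when the median of all genes was -0.037. *Lhfpl3* measured 6.44 to 11.3 TPM in WT cerebella and 9.44 to 14.7 TPM in mutant cerebella, with a log2 fold change of 0.44 (95% interval -0.01 to 0.89). *Cacng4*, an auxiliary subunit of AMPA receptors, stood at -0.21, *Luzp2* at 0.42 and *Megf11* at -0.022. *Luzp2* was lowest in WT replicate 5, at 10.4 TPM, and stood at 0.069 without that library, where *Megf11* stood at -0.0068.

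Of 9 genes of committed and newly formed cells, 8 were above 0 (median 0.17), and 7 without WT replicate 5 (median 0.071). *Tmem163*, a zinc transporter, was the exception, at 38.1 to 47.6 TPM in WT cerebella and 29.0 to 41.9 TPM in mutant cerebella, where its log2 fold change was -0.31 (95% interval -0.57 to -0.05). The long noncoding RNA *9630013A20Rik* stood at 0.52, *Fyn*, a kinase of process outgrowth and myelination, at 0.11 and *Sirt2*, a deacetylase found in myelin, at 0.031. These 3 stood at 0.30, -0.018 and 0.048 without WT replicate 5. *Enpp6*, *Bmp4* and *Gpr17*, from the same stages, stood at -0.27, -0.54 and 0.09, so the stage showed no shared sign.

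Of 10 lineage transcription factors besides *Olig1* and *Olig2*, 6 were above 0 (median 0.11), and 5 without WT replicate 5 (median 0.023). *Sox8*, a relative of *Sox10*, stood at -0.26, *Zfp488*, an OLIG2 cofactor, at 0.99 with a 95% interval of -0.58 to 2.56, *Klf9* at 0.16 and the chromatin remodeller *Chd7* at 0.24. *Zfp488* measured 0 TPM in WT replicate 5 and 0.574 to 1.69 TPM in the other 9 libraries, and its log2 fold change without that library was 0.27, with 0.10 for *Klf9*. Among 7 inhibitors of differentiation, 4 were above 0 (median 0.078), with 2 under the GC correction (median -0.13) and 3 without WT replicates 3 and 5 (median -0.0067). *Sox6*, which keeps precursors immature, measured 0.0910 to 1.47 TPM in WT cerebella and 0.889 to 4.15 TPM in mutant cerebella, with a log2 fold change of 1.59 (95% interval -0.01 to 3.20). *Id2* and *Id4*, which block helix-loop-helix factors, stood at 0.078 and 0.091, and *Lingo1* at -0.14. *Id4* stood at 0.0039 without WT replicate 5.

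The list of myelin genes, the end of the lineage, had 14 of 15 values above 0 with a median of 0.40. Its summed level ran from 6027 TPM (replicate 5) to 8759 TPM in WT, with a median of 8153 TPM. In the mutant it ran from 7788 to 9109 TPM, with a median of 8923 TPM. Without WT replicate 5, 11 of 15 were above 0 and the median was 0.18. At an unadjusted limma p under 0.05, 5 of 15 were higher in the mutant, against 2.29% of all genes tested. The count was 5 without WT replicate 5 (289 of all 17168 genes) and 7 with the GC correction (3.38% of all genes). It was 3 with mitochondrial mRNA as a covariate (223 of all genes). Markers of dividing cells were near the lower limit, with 1 of 8 abundant enough to test and sums of 1.31 to 5.24 TPM in WT cerebella and 1.83 to 3.79 TPM in mutant cerebella. Schwann cells, which also make myelin, were low by their markers: 1 of 6 could be tested and *Pmp2* was listed at 0.

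**Figure D4:**
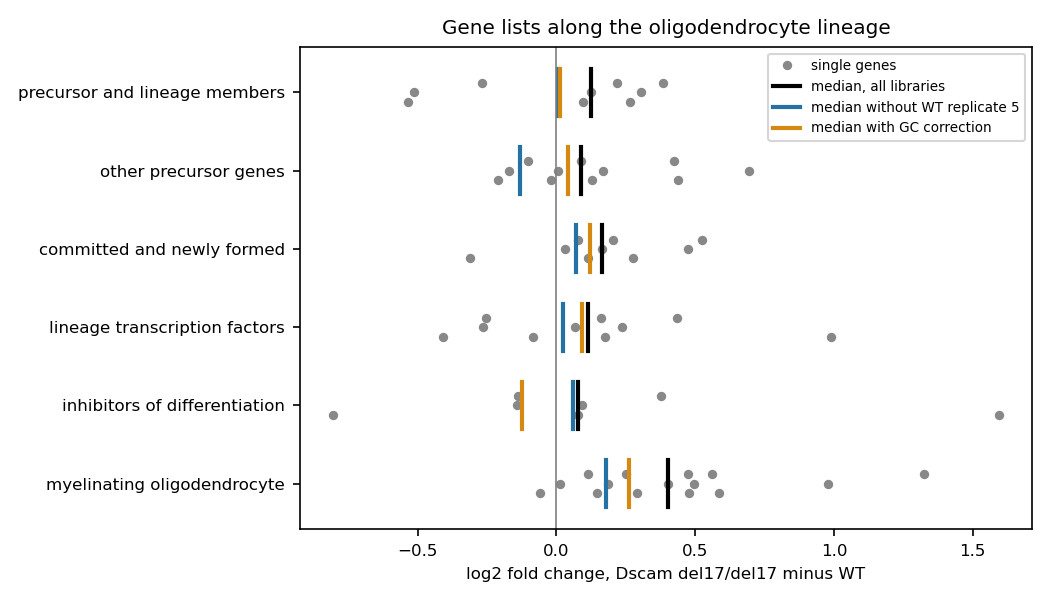
Log2 fold changes, *Dscam* del17/del17 minus WT, of single genes (grey points) in 6 lists along the oligodendrocyte lineage. Vertical lines are the list medians with all libraries (black), without WT replicate 5 (blue) and with the GC correction (orange). The black median of the myelin genes is 0.40 and the blue one 0.18, and the precursor lists straddle 0.

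Ligands and partners of these genes were read the same way. Of 5 PDGF genes, 3 were above 0 (median 0.015), and 1 without WT replicate 5 (median -0.16). *Pdgfa*, the ligand of PDGFRA in the brain, measured 17.2 ± 3.74 TPM in WT mice and 17.1 ± 1.25 TPM in mutant mice (SD, n = 5 each), a log2 fold change of 0.015 (95% interval -0.35 to 0.38), or -0.10 without WT replicate 5. *Pdgfb* stood at -0.16, its receptor *Pdgfrb* at -0.10 (-0.20 without WT replicate 5) and *Pdgfc* at 0.54. *Pdgfc* was listed at 0 in WT replicate 5, and without that library its log2 fold change was -0.32. Among the BMP pathway genes 13 of 17 tested were above 0 (median 0.090, 1 of the 18 listed being too low to test), and 9 without WT replicates 3 and 5 (median 0.042). *Smad6*, an inhibitory SMAD, measured 1.5 to 3.41 TPM in WT cerebella and 0.175 to 2.55 TPM in mutant cerebella, with a log2 fold change of -1.44 (95% interval -2.79 to -0.09). The BMP targets *Id1* and *Id3* stood at -0.11 and -0.36, with intervals that spanned 0, and at 0.047 and -0.21 without WT replicate 5.

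Among 11 partners of PTPRZ1 and versican, 7 were above 0 (median 0.023), and 5 without WT replicate 5 (median -0.03). *Hapln1*, a link protein that fixes versican to hyaluronan, measured 0.452 to 2.06 TPM in WT cerebella and 2.0 to 7.17 TPM in mutant cerebella, with a log2 fold change of 1.87 (95% interval 0.71 to 3.02, limma adjusted p = 0.779). *Mdk*, a heparin-binding ligand of PTPRZ1, measured 48.3 to 70.8 TPM in WT cerebella and 27.2 to 46.4 TPM in mutant cerebella without overlap, with a log2 fold change of -0.52 (95% interval -0.89 to -0.16, limma adjusted p = 0.779). *Ptn*, the related ligand, stood at -0.056 (-0.22 without WT replicate 5) and the matrix proteoglycan *Bcan* at -0.21.

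Among 12 Wnt and TCF genes, 7 were above 0 (median 0.12), and 2 without WT replicate 5 (median -0.050, against -0.037 for all genes). *Ctnnb1*, which encodes beta-catenin, measured 144 to 194 TPM in WT cerebella and 202 to 266 TPM in mutant cerebella without overlap, with a log2 fold change of 0.50 (95% interval 0.25 to 0.75, limma adjusted p = 0.779). *Tcf7* stood at 0.67 with a 95% interval of -0.36 to 1.69, and *Apcdd1*, a Wnt inhibitor, at -0.042. They stood at 0.32 and -0.065 without WT replicate 5. The intervals of *Hapln1*, *Mdk* and *Ctnnb1*, like those of *Tmem163* and *Smad6*, left out 0, and none of these genes passed the correction over all genes. Each was named as 1 of the 2 genes of smallest p in its list. Of all genes tested, 5.55% had an unadjusted limma p under 0.05. Groups without overlap, as for *Mdk* and *Ctnnb1*, were found in 1.22% of all genes tested. The interval of *Smad6* without WT replicate 5 ran from -2.84 to 0.086.

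How the lineage genes varied together was described by Pearson correlations of log2 values after removing each genotype's mean, over the same 10 libraries, which share their depth and base composition between genes. Of 36 pairs, 11 had a correlation above 0.5 and 11 below 0, and the median was 0.309. Leaving out WT replicate 5, 6 were above 0.5 and 14 below 0, and the median was 0.118. *Ptprz1* and *Vcan* were the pair most alike over all 10 libraries (0.799, and 0.674 without WT replicate 5), and *Olig2* went with *Ptprz1* (0.785, and 0.615). With the mean of the mitochondrial mRNAs *Olig2* had 0.908 (0.842 without WT replicate 5), *Ptprz1* 0.913 (0.842) and *Vcan* 0.877 (0.649). The other lineage genes had -0.624 (*Cspg4*) to 0.653 (*Pdgfra*) with it. *Olig2* had 0.904 with the Bergmann glia and astrocyte markers and 0.898 with the granule cell markers. *Vcan* had 0.981 with the choroid plexus markers (0.920 without WT replicate 5), the highest with any marker list. *Pdgfra* had 0.639 (0.274) with meningeal fibroblast markers, *Cspg4* -0.233 (0.128) with pericyte markers and *Ptprz1* 0.807 (0.619) with Bergmann glia and astrocyte markers. With midbrain, thalamus and brainstem markers values ran from -0.521 (*Cspg4*) to 0.838 (*Pdgfra*). What these values share was not tested. *Cspg4* ran against *Ptprz1* (-0.793, and -0.644). *Pdgfra* and *Cspg4*, which mark the same cell, had -0.51 (-0.208 without WT replicate 5), and *Olig1* and *Olig2*, neighbours on the chromosome, had -0.287 (-0.104). Without WT replicate 5 the highest was *Cspg4* with *Gpr17*, at 0.788, against 0.136 over all 10 libraries.

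The closest match of each lineage gene in the same 10 libraries was sought over the protein-coding genes tested. Matches were *Tada2b* for *Pdgfra* (0.966), *Alg1* for *Cspg4* (0.959), *Sp6* for *Olig1* (0.955) and *Rbbp9* for *Olig2* (0.984). For the genes of later stages they were *Rnpep* for *Gpr17* (0.958), *Rac2* for *Bmp4* (0.916) and *Dusp15* for *Enpp6* (0.985, and 0.978 without WT replicate 5). *Ptprz1* was followed by *Ssr3* (0.985) and *Vcan* by *Rapgef4* (0.991, and 0.914 without WT replicate 5). No lineage gene had another as its closest match, but the lineage genes were few among those searched. That says little about whether they vary together. Each match is the highest of very many correlations over 10 libraries, so its size says little by itself.

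Markers of other cells were set beside these results as whole lists. Granule cell markers had 1 of 8 log2 fold changes above 0 (median -0.12), Purkinje cell markers 7 of 8 (median 0.17), microglial markers 5 of 8 (median 0.17) and choroid plexus markers 4 of 6 tested (median 0.15), or none without WT replicate 5 (median -0.18). Without WT replicate 5 the medians were -0.21 for granule cells, 0.099 for Purkinje cells and 0.063 for microglia. With the GC correction Purkinje cell markers had 4 of 8 above 0 (median 0.0020) and granule cell markers 1 of 8 (median -0.34). Microglial markers then had 6 of 8 (median 0.097) and choroid plexus markers 4 of 6 (median 0.12). At an unadjusted limma p under 0.05, 3 of 8 granule cell markers were lower in the mutant (559 of all 17168 genes). With the GC correction there were 6 (471 of 13480 genes). Their part in the values of the lineage genes was not tested.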

How the data were processed

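RNA from 5 WT and 5 *Dscam* del17/del17 cerebella was sequenced by the authors with a directional kit. Per the submitters' processing notes, Trimmomatic (0.36) removed adapters, HISAT2 (2.2.0) placed reads on GRCm38, and StringTie (1.3.6) gave expression per Ensembl gene. The authors deposited this as TPM, already scaled per library and by length. Depth is unknown, and read counts were not analysed here. The annotation release is not given in the sources used here, and GENCODE M21 lacked 105 of the 53447 identifiers.

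The 17168 genes that 5 or more libraries held at 0.5 TPM or above were tested on log2(TPM + 0.1) with limma (version 3.58.1, R version 4.3.3), with a variance trend, no covariates and Benjamini-Hochberg adjustment over all of them. Added 0.1 TPM makes fold changes of low genes smaller. Single values had an exact two-sided permutation test over 252 assignments. The plan named counts first and TPM as the fallback that was used. For each list, the 2 genes of smallest p and the 2 of highest mean level are named. Genes most alike were ranked by correlation. The GC correction subtracted a lowess curve (span 0.3) per library. The code was tested on simulated data. The 10 genes and all lists were chosen with earlier results of these data known. Labels do not say whether mice shared litters.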

Additional observations from a re-analysis of the deposited data

Results flagged for a closer look

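Of 28 groups of 5 libraries examined for a value far from the others, 1 stood out, about as many as the 1 in 20 that chance gives. The listed TPM of mutant replicate 1 summed to 805869, against 783212 in the next mutant library, a gap of 0.738 of the group's range. In that library *Olig1* was at its highest (147 TPM) and *Gpr17* was at its lowest of the mutant group (20.1 TPM). None of the 10 lineage genes had such a library in either genotype.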

How the results depend on the processing

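Over 24 alternatives, 205 of 216 log2 fold changes of the 9 genes kept their sign and 11 changed sign. None of the 9 passed the adjusted threshold under any of them. Changing the filter, keeping protein-coding genes only and adding a replicate block cannot move a fold change, so part of the 205 was fixed in advance. With mitochondrial mRNA as a covariate, *Pdgfra* was -0.20, *Gpr17* -0.033, *Ptprz1* -0.079 and *Vcan* -0.13, and without WT replicates 3 and 5 they were -0.13, -0.056, -0.022 and -0.049. Under both, 2 of 9 were above 0, while all genes had medians of -0.11 and -0.094. *Gpr17* was -0.011 with array weights and -0.00062 without WT replicate 5, and *Ptprz1* was -0.0051 with the GC correction, which was added after seeing the data. The causes were not tested. *Bmp4*, *Cspg4* and *Enpp6* stayed below 0 and *Olig1* and *Olig2* above 0 throughout. *Olig2* ran from 0.16 to 0.51 and had an unadjusted limma p under 0.05 in 16 of 24, settings that share most of their libraries.

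Leaving out 1 library at a time gave 0 to 1 genes past the adjusted threshold, 5 to 6 lineage genes above 0, and medians of 0.0052 to 0.19. The 1 gene, without DscamKO replicate 4, was *1500004A13Rik*, named after its values were seen. Genes at an unadjusted p under 0.05 numbered 704 to 1634, with 1586 without WT replicate 1 and 1634 without WT replicate 2. Same-numbered libraries deviated together by correlations of 0.008 to 0.098. Differently numbered libraries were not compared, so these values cannot tell whether the numbers pair the mice. A replicate block left 0 genes past the threshold and 1094 at an unadjusted p under 0.05. TPM without counts, 5 mice per group and the spread of WT replicate 5 limit what could be seen.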
